A study of Drosophila melanogaster with 18 samples.

Results

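The comparison is between fruit fly embryos (Drosophila melanogaster) of the genotype orb2-delta-zz and embryos of the wild type strain w1118, both collected 1-2h after egg laying. The members are the 6 libraries of that hour, 3 of orb2-delta-zz and 3 of wild type, out of 18 libraries in the series. The orb2-delta-zz flies carry an allele of orb2 that lacks the ZZ zinc-binding domain of its protein. The w1118 flies are named in the labels as the control line before injection. Flies of both genotypes were kept at 25 °C, and total RNA of embryos was depleted of ribosomal and other abundant RNA before sequencing. The remaining 12 libraries are the same 2 genotypes at 0-1h and 2-3h, with 3 libraries each. The labels do not say whether the libraries of a group came from separate collections, so the p-values measure the spread between these libraries, which may be technical. The question, as the title of the series puts it in other words, is whether ORB2 needs this domain to lower the levels of its target transcripts.

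ORB2 belongs to the CPEB family, RNA-binding proteins that attach to the 3′ untranslated region of a messenger RNA and set its poly(A) tail and translation. A fly egg is loaded by the mother with the transcripts and proteins that run the first nuclear divisions. In the hours after laying, RNA-binding repressors such as Smaug, Brain tumor and Pumilio recruit deadenylases, and maternal transcripts are cleared. Around the same time a first small group of zygotic genes is switched on, with the pioneer factor Zelda, and the main wave follows at cellularization. Embryos of 1-2h lie within this handover.

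Of 8188 genes listed at 1-2h, 8095 had a mean normalized count of at least 10 over the 6 libraries and were tested. A normalized count is the authors' own value per gene and library, made comparable between libraries by them. Differences were tested on log2(normalized count + 1) with limma, and a gene is called here when its p, adjusted by Benjamini and Hochberg over all genes tested, is under 0.05. By that rule 597 genes were called, 7.38% of those tested, with 285 higher (3.52%) and 312 lower (3.85%) in orb2-delta-zz. The orb2-delta-zz and wild type libraries did not overlap at any of the 597 called genes, as at 2656 genes in all (32.8%). In log2 units, the called changes had quartiles of 0.55 and 1.80 and a median of 0.90 in size. There were 131 called genes that changed by 4-fold or more and 64 that changed by 8-fold or more, 29 of them higher and 35 lower. On TPM, which corrects for transcript length and total, 292 genes were higher and 204 lower, so that the higher share of calls was 58.9% against 47.7% on normalized counts.

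Of the 6 libraries, 1 stood apart from its group. Zygotic and maternal transcripts were followed as classes defined from wild type TPM at 0-1h and 2-3h alone. The rise class (705 genes tested) at least doubled between those times, the decay class (2430 genes tested) fell to 0.5 or less, and the steady class (3857 genes tested) lay between. The median rise class gene deviated from its mean over all 6 libraries by -0.003, -0.03 and -0.09 in the orb2-delta-zz libraries, against 0.49, -0.54 and 0.34 in the wild type libraries, on the log2 scale. The median decay class gene deviated by -0.02, 0.02 and -0.01 in orb2-delta-zz, against -0.15, 0.21 and -0.04 in wild type. Wild type replicate 2 was thus low in rising transcripts and high in decaying ones, while wild type replicates 1 and 3 lay on the other side of all 3 orb2-delta-zz libraries. The same library held 1930 normalized counts summed over the late muscle markers Mlc2, Act57B and Act87E, against 577 and 292 in the other wild type libraries and 202, 232 and 103 in orb2-delta-zz. Without wild type replicate 2, 1261 genes were called (15.6%), 564 higher (6.97%) and 697 lower (8.61%), and 594 of the 597 were among them. Leaving out wild type replicate 3 gave 285 calls, and leaving out orb2-delta-zz replicate 1, 2 or 3 gave 263, 203 or 218. There were 186 genes called in every one of the 6 fits with a library left out (2.30%), 82 higher (1.01%) and 104 lower (1.28%).

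**Figure D1:**
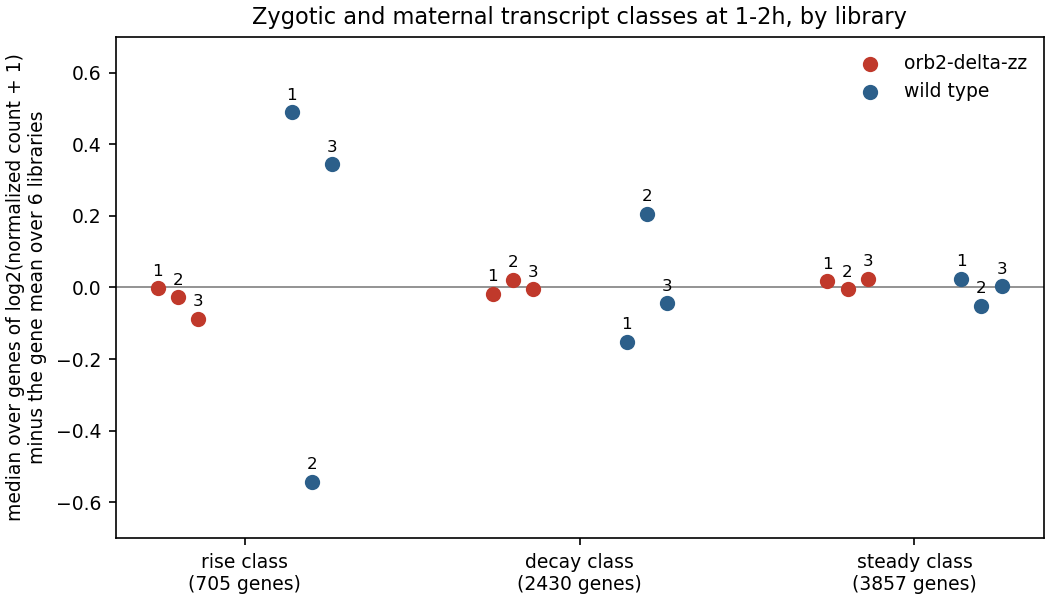
The vertical axis is the median over the genes of a class of log2(normalized count + 1) minus the gene's mean over the 6 libraries, with a number for each replicate and orb2-delta-zz left of wild type. The 3 orb2-delta-zz libraries lie close together in each class, while wild type replicate 2 lies apart from wild type replicates 1 and 3 in the rise and decay classes.

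The targeted gene was read first. The BDGP6.54 annotation places orb2 at 3L:8937100-8954463, minus strand. It held 2258, 2209 and 2062 normalized counts in orb2-delta-zz, against 2594, 3184 and 2801 in wild type. All 3 orb2-delta-zz libraries were below all 3 wild type libraries. The log2 difference of -0.39 ± 0.10 (SE) missed the threshold (adjusted p = 0.0601 in limma) and passed it without wild type replicate 1 (adjusted p = 0.0289). A value over the whole gene does not show the deleted stretch, so it does not check the genotype, and CG43783 overlaps orb2 on the same strand.

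The early zygotic genes are the ones that pattern and cellularize the embryo. Of 113 listed, 112 were tested, 0 were higher and 5 were lower in orb2-delta-zz, or 4.46% against 7.38% of all genes tested, and their median log2 difference was -0.003. The 5 were sala, the Snail family gene wor, the Enhancer of split gene E(spl)m7-HLH, the epidermal growth factor receptor ligand vn and the gastrulation ligand fog. sala had 1456, 1346 and 1178 normalized counts in orb2-delta-zz, against 12200, 2780 and 7873 in wild type. The groups did not overlap, and wild type replicate 2 was the lowest of its group. The log2 difference of sala was -2.28 ± 0.47 (SE; limma, adjusted p = 0.0280), and it was also lower at 0-1h (-2.81) and at 2-3h (-1.71). wor followed with 62.9, 50.3 and 24.2 in orb2-delta-zz against 202, 114 and 154 in wild type (-1.82, adjusted p = 0.0326). The remaining differences were -1.22 for E(spl)m7-HLH, -0.85 for vn and -0.44 for fog. In wild type fog already held 1872, 1765 and 1802 normalized counts at 0-1h, against 1712, 1814 and 2053 at 1-2h, in separately normalized data. It was called lower at 0-1h too (-0.28), so its call is not read as one of zygotic onset. Each of the 5 calls was lost when wild type replicate 3 or any single library of orb2-delta-zz was left out, and those of wor and E(spl)m7-HLH also without wild type replicate 1, with adjusted p of up to 0.172. With the replicate number as a block, 2 of the 5 were called and those of vn (adjusted p = 0.0515), fog (0.0615) and E(spl)m7-HLH (0.0528) were not.

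With wild type replicate 2 left out, 37 early zygotic genes were called and all 37 were lower in orb2-delta-zz, with a median of -0.40, beside 8.61% lower calls over all genes in that fit. That library was singled out by its low rising transcripts in these same data. Leaving it out raises the wild type mean of such genes, so this fit is no independent support. Without wild type replicate 1 the median was 0.15 with 3 called lower, and without wild type replicate 3 it was 0.095 with 0 called. At 0-1h, an hour whose libraries are separate from these, 1 of 100 was higher and 16 were lower, with a median of -0.57, beside 11.2% higher and 10.1% lower over all genes. At 2-3h 2 of 112 were lower and 0 were higher, with a median of -0.06, beside 3.28% of all genes called at that hour.

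The early zygotic list holds groups of different roles, whose medians were not tested against each other. Cellularization genes, which build the furrows between nuclei, had a median of 0.51 and 7 of 8 positive differences with 0 called (limma; 2 at an unadjusted p under 0.05). Among them nullo held 2011, 1640 and 1936 normalized counts in orb2-delta-zz, against 1638, 593 and 1230 in wild type. slam held 40440, 38470 and 48660 in orb2-delta-zz against 34290, 17430 and 46000 in wild type. At both, wild type replicate 2 was lowest, and without it the cellularization median was -0.01 with 1 gene called lower. Gap genes, the first zygotic division of the body axis, had a median of 0.29 and 0 of 12 called (1 at an unadjusted p under 0.05), but a median of -0.16 with 3 called lower without wild type replicate 2. Kr is an example, with 1871, 1750 and 2158 in orb2-delta-zz and 1800, 720 and 2310 in wild type, groups that overlap. Pair-rule genes had a median of 0.13 with 0 of 9 called, and 0 had an unadjusted p under 0.05. Leaving out wild type replicate 2 turned their median to -0.30, with 2 called lower. The genes of X chromosome counting and sex determination had a median of 0.06 with 0 of 9 called (1 at an unadjusted p under 0.05), against 0.01 and 2 called lower without that library.

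Segment polarity and Hox genes, which act after the pair-rule step, had 12 of 13 negative differences, with a median of -0.85 and 0 called (limma; 7 at an unadjusted p under 0.05). abd-A held 115, 171 and 81.3 normalized counts in orb2-delta-zz, against 375, 214 and 223 in wild type. Ubx held 46.8, 59.8 and 20.8 in orb2-delta-zz, against 154, 69.6 and 94.9 in wild type. The groups did not overlap at abd-A or Ubx, and the log2 differences were -1.16 (adjusted p = 0.0808) and -1.35 (adjusted p = 0.123). With wild type replicate 2 left out, the median of the 13 was -1.16 and 9 were called lower. The Enhancer of split and Bearded genes, targets of Notch signalling, had 11 of 12 negative differences, a median of -0.77 and 1 called lower (E(spl)m7-HLH), and 5 called lower without wild type replicate 2. On TPM the medians of both groups stayed negative at -0.42 and -0.39. In bulk embryos a smaller share of embryos at a stage and less RNA per embryo cannot be told apart.

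**Figure D2:**
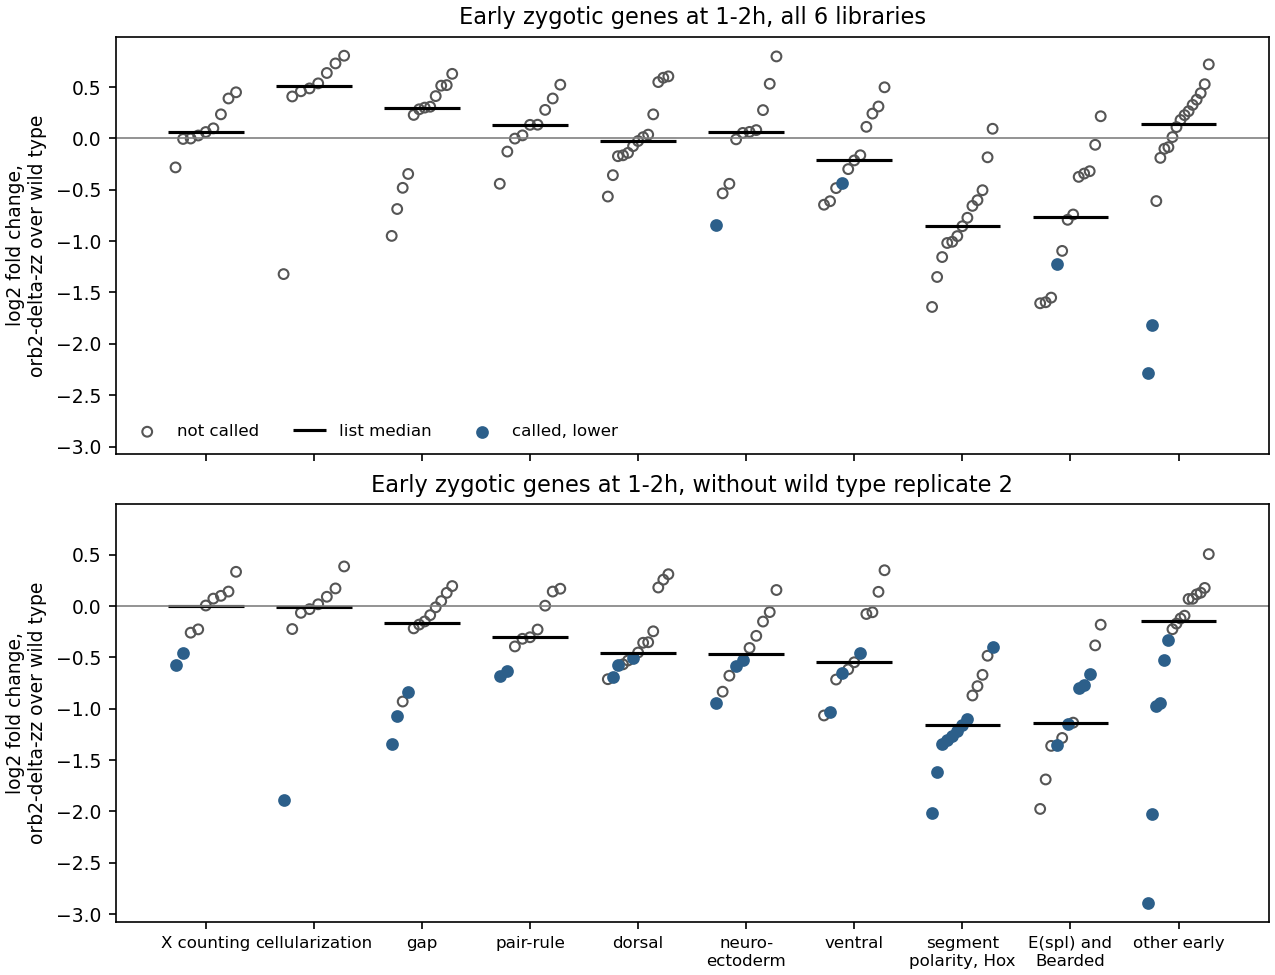
Each circle is an early zygotic gene at its log2 fold change of orb2-delta-zz over wild type, by role, with all 6 libraries above and without wild type replicate 2 below. Filled circles passed the threshold and black bars are medians. The 5 called genes in the upper panel become 37 in the lower one, and the segment polarity, Hox and Enhancer of split groups are lowest in both. The library left out below was singled out by its low rising transcripts in these same data.

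The rise class as a whole held 10 higher and 31 lower calls (5.82% of 705, beside 7.38% of all genes tested), with a median of -0.11. Leaving out wild type replicate 2, it held 13 higher and 232 lower, with a median of -0.46. Over all genes in that fit 6.97% were higher and 8.61% lower. Leaving out wild type replicate 1 gave 14 higher and 19 lower, with a median of 0.096. Leaving out wild type replicate 3 gave 6 higher and 8 lower, with a median of 0.007. The sign of the median thus depended on which wild type library was left out. Called in every left-out fit were 4 higher and 5 lower, beside 1.01% higher and 1.28% lower over all genes. Among those 9 D2hgdh, an enzyme that oxidizes D-2-hydroxyglutarate, held 1173, 1120 and 1054 normalized counts in orb2-delta-zz, against 220, 167 and 168 in wild type (2.60 ± 0.15, adjusted p = 7.89e-05). The peroxiredoxin gene Prx6b was higher by 1.75 and Cadps, which primes vesicles for release, by 1.33. Fas3, a cell adhesion protein of the immunoglobulin family, held 21.2, 22.2 and 6.63 in orb2-delta-zz, against 210, 232 and 158 in wild type (-3.65 ± 0.45). CG13716 (-2.15) and the non-coding gene CR43211 (-5.28) were lower as well. All 6 genes just named were on 1 side of wild type in every library, as was every called gene. The linker histone copy His1:CG33801 (1.81) and CG11275 (1.76) were higher, but lost the call when wild type replicate 3 or any single library of orb2-delta-zz was left out, with adjusted p of up to 0.148. Histone H1 has many near-identical copies, so its value is uncertain. The transporter gene MFS1 (-1.96) was called in the full fit only by a margin (adjusted p = 0.0485) and in 2 of the 6 left-out fits, with adjusted p of up to 0.178.

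In the decay class, 62 genes were higher and 80 lower (5.84% of 2430, beside 7.38% of all genes tested), with a median of -0.01. In the fit without wild type replicate 2 there were 251 higher and 98 lower, with a median of 0.09. The shares over all genes in that fit were 6.97% higher and 8.61% lower. With the replicate block there were 44 higher and 85 lower. Without wild type replicate 1 there were 62 higher and 119 lower, with a median of -0.08. Without wild type replicate 3 there were 17 higher and 53 lower, with a median of -0.04. On TPM 41 were higher and 36 lower. Called in every left-out fit were 12 higher and 26 lower, beside 1.01% higher and 1.28% lower over all genes. The largest decline among protein-coding genes with counts in both genotypes was that of the zinc finger gene dati, with 6.01, 1.74 and 2.97 normalized counts in orb2-delta-zz against 269, 470 and 313 in wild type (-6.33 ± 0.42). CG13982 was lower by a log2 difference of -5.40, and GILT3, a thiol reductase gene, held 34.0, 37.1 and 25.2 in orb2-delta-zz against 1161, 1180 and 1159 in wild type (-5.16 ± 0.19, adjusted p = 1.01e-05). The GILT3 libraries of the 2 genotypes were far apart, and it was also lower at 0-1h (-4.55) and 2-3h (-4.70). Among the increases were the heat shock gene Hsp70Ab (2.32), CG9577 (1.83), CG13101 (1.77) and the non-coding genes lncRNA:CR46147 (2.53) and lncRNA:CR45631 (2.11). The call of lncRNA:CR46147 was lost without orb2-delta-zz replicate 1 (adjusted p = 0.0504).

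Regulators of maternal clearance, zygotic activation and the cell cycle are set beside the 7.38% called over all genes tested. Lists this short hold few calls at that share too, so a count of 0 or 1 does not set a list apart. The pioneer factors (0 of 9 called), the deadenylation and poly(A) list (0 of 14), the decapping and decay list (0 of 17) and the cyclin and Cdc25 list (0 of 24) had 0, 2, 1 and 2 members at an unadjusted p under 0.05 in limma. In the fit without wild type replicate 2, 1 pioneer gene was called lower, 1 cyclin list gene higher, and 0 genes of the other lists. smg, the repressor Smaug, held 70160, 72460 and 78280 normalized counts in orb2-delta-zz and 66860, 72560 and 71480 in wild type, and the groups overlapped. The log2 differences were 0.07 for smg, -0.07 for brat, 0.13 for pum and 0.05 for zld, the gene of Zelda. Of 17 genes listed with the RNA-binding repressors 1 was called. It was egl, whose product Egalitarian ties messenger RNAs to dynein, a role in transport. egl held 4757, 4853 and 4836 in orb2-delta-zz against 6704, 7753 and 6257 in wild type (-0.51 ± 0.09, limma, adjusted p = 0.0176). Of 22 maternal patterning and transition genes 1 was called, against 3 higher and 2 lower without wild type replicate 2. This was mtrm, an inhibitor of Polo kinase in the oocyte, which held 5132, 5375 and 5296 in orb2-delta-zz against 7968, 9311 and 7368 in wild type (-0.63 ± 0.10, adjusted p = 0.00917). The genotypes did not overlap at egl or mtrm, as at every called gene. The egl call was lost when any single library of orb2-delta-zz was left out (adjusted p up to 0.0902) and the mtrm call without orb2-delta-zz replicate 2 or 3 (adjusted p up to 0.0521). On TPM neither passed (adjusted p = 0.129 for egl and 0.0506 for mtrm). CanB2, a calcineurin subunit of egg activation, was higher by 0.50 and lost the call when wild type replicate 3 or any single library of orb2-delta-zz was left out (adjusted p up to 0.134).

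The small RNA machinery, which silences transposons in the germ line, had 3 of 30 members higher and 0 lower. That is 10%, beside 7.38% of all genes, and without wild type replicate 2 there were 7 higher and 1 lower. moon, the germline transcription factor Moonshiner that drives piRNA clusters, held 2563, 2527 and 2467 normalized counts in orb2-delta-zz, against 821, 421 and 384 in wild type. The libraries were far apart, and the log2 difference was 2.30 ± 0.26 (adjusted p = 0.00242), with 2.62 at 0-1h and 2.46 at 2-3h. moon lies at X:12072008-12072818 in BDGP6.54. On the opposite strand of moon the annotation has lncRNA:CR43960, which was lower (-5.18), with 3.86, 7.25 and 0 in orb2-delta-zz against 112, 105 and 161 in wild type. The piRNA-binding Argonaute gene aub was higher by 0.55 (adjusted p = 0.0116), and nxf2, an export factor relative that acts in piRNA silencing, by 0.35 (adjusted p = 0.0410). The aub call was lost when any single library of orb2-delta-zz was left out, and that of nxf2 in 5 of the 6 left-out fits (all but that without wild type replicate 2) and with the replicate block, with adjusted p of up to 0.172. The sources do not state whether the authors counted by strand, so reads of overlapping genes cannot be told apart.

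Several enzymes of detoxification were called. Glutathione S-transferases and UDP-glycosyltransferases join foreign and waste compounds to glutathione or a sugar. Of 70 such genes 36 were tested, and 9 were higher and 1 lower (27.8% against 7.38% of all genes). All 9 were higher without wild type replicate 2 too, where the group had 11 higher and 1 lower, and 6 of them were called in every left-out fit. GstE1 (2R:18398393-18399223 in BDGP6.54) held 662, 630 and 750 normalized counts in orb2-delta-zz, against 38.3, 56.0 and 56.8 in wild type (3.75 ± 0.21, adjusted p = 5.98e-05). Ugt36E1 held 1416, 1609 and 1424 in orb2-delta-zz against 157, 211 and 172 in wild type (3.05 ± 0.15). Ugt50B3 held 895, 769 and 783 in orb2-delta-zz against 102, 92.2 and 119 in wild type (2.96 ± 0.16). In all 3 genes the lowest orb2-delta-zz library was more than 5-fold above the highest wild type library. GstE7 (2.13), Ugt35A1 (2.05) and GstT3 (1.47) were higher and kept the call in every left-out fit as well. Ugt302C1 (0.77), GstE11 (0.60) and GstT1 (0.53) kept it in 4, 2 and 2 of the 6. With the replicate block GstE11 (adjusted p = 0.0550) and GstT1 (0.0502) lost the call. Ugt316A1 was lower by 0.41 on the log2 scale in orb2-delta-zz, and kept the call in 2 of the 6. GstE1 and its neighbours form a cluster of similar genes, so reads may be shared between them.

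Cytochrome P450 genes, which oxidize foreign compounds, steroids and fatty acids, moved in both directions: of 29 tested, 3 were higher and 4 lower (24.1%). Cyp317a1 held 99.5, 130 and 107 normalized counts in orb2-delta-zz, against 14.8, 10.1 and 9.46 in wild type (3.20 ± 0.30). Cyp6a20 (3.12) and Cyp6a9 (2.03) were higher but lost the call when wild type replicate 3 or any single library of orb2-delta-zz was left out, with adjusted p of up to 0.105. Cyp6a14 held 0.778, 3.03 and 0 in orb2-delta-zz, against 50.1, 45 and 59.1 in wild type (-4.76 ± 0.59). Cyp6a17 was lower by a log2 difference of -2.40 and kept the call in all 6 left-out fits. Cyp6d2 (-4.60) kept it in 4 of the 6. Cyp4e2 was lower by -0.58 and kept the call in 3 of the 6. Cyp317a1 overlaps Kank on the opposite strand, and Kank was higher as well (3.05). The P450 group without wild type replicate 2 had 4 higher and 8 lower.

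**Figure D3:**
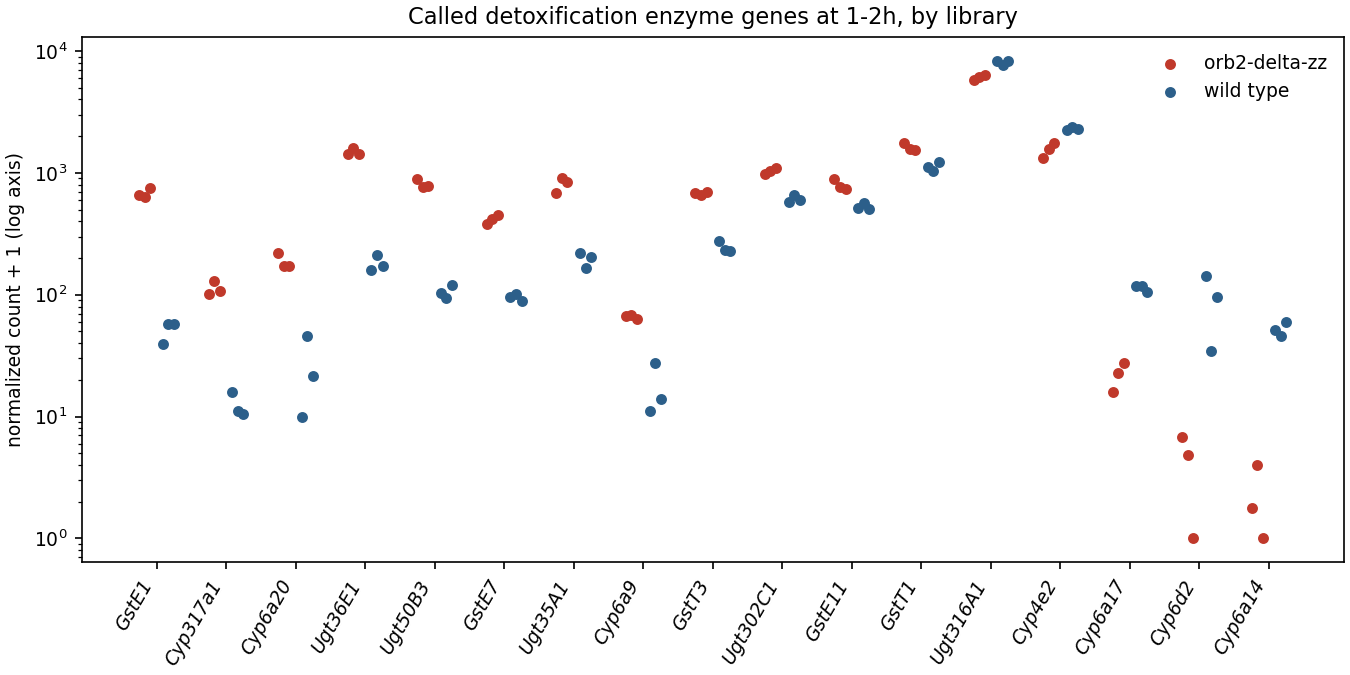
Normalized count + 1 in each library, on a log axis, for the 17 called genes among glutathione S-transferases, UDP-glycosyltransferases and P450 enzymes, with orb2-delta-zz left of wild type at each gene. The 12 genes on the left are higher and the 5 on the right lower in all 3 orb2-delta-zz libraries than in any wild type library. Such separation held at every called gene.

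Housekeeping groups are set beside the 7.38% called over all genes tested. Of 86 cytoplasmic ribosomal protein genes, 0 were higher and 3 lower (3.49%), with a median of -0.18 and 76 negative differences. RpL31 held 10700, 10480 and 10990 normalized counts in orb2-delta-zz, against 16360, 13140 and 13920 in wild type (-0.43 ± 0.10), RpL29 (-0.44) and RpL38 (-0.43) being alike. These calls were lost when wild type replicate 3 or any single library of orb2-delta-zz was left out (adjusted p up to 0.155). The median without wild type replicate 2 was -0.31 and 26 were lower, and on TPM of all libraries it was -0.10. Mitochondrial ribosome genes had 3 higher and 1 lower of 73 (5.48%), with a median of 0.13 and 53 positive differences. The largest was that of mRpL14, with 908, 771 and 814 in orb2-delta-zz against 241, 242 and 219 in wild type (1.82 ± 0.13). mRpL28 (0.71) was called in every left-out fit, while mRpL10 (0.34) and mRpL22 (-0.64) were called in 1 and 2 of the 6, and mRpL10 not with the replicate block (adjusted p = 0.0806). Initiation factors had 0 of 36 called (limma; 6 at an unadjusted p under 0.05, and 3 called higher without wild type replicate 2) and replication genes 0 of 25 (6 at an unadjusted p under 0.05, and 1 called higher without that library).

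In the proteasome list, 1 of 35 was higher and 2 lower (8.57%, beside 7.38% of all genes tested). Prosalpha1R, a second copy of a core subunit gene, held 7499, 8600 and 7776 normalized counts in orb2-delta-zz, against 23910, 19200 and 23200 in wild type (-1.47 ± 0.11, adjusted p = 0.000222). It lies at 2R:7830413-7831771 in BDGP6.54 and overlaps CG18853 on the opposite strand, which was lower too (-6.09). The CG18853 call was lost without wild type replicate 1 or 3 or orb2-delta-zz replicate 3 (adjusted p up to 0.100). Prosbeta4 (0.40) and Rpn7 (-0.40) were called in 1 and 2 of the 6 left-out fits and lost the call with the replicate block (adjusted p = 0.0745 and 0.0525). The histidine tRNA synthetase gene HisRS was higher, with 10430, 9528 and 9565 in orb2-delta-zz against 6187, 4760 and 4967 in wild type (0.90 ± 0.11, adjusted p = 0.00340). AlaRS (-0.45) and ValRS (-0.42) were lower and kept the call in 2 and 3 of the 6 left-out fits. The list of 33 had 1 higher and 2 lower (9.09%), against 3 and 2 without wild type replicate 2. Of 24 glycolysis and citric acid cycle genes 2 were higher, fbp, the fructose bisphosphatase of gluconeogenesis (1.11 ± 0.13, adjusted p = 0.00286), and Pfk, the kinase that opposes it (0.41, lost when wild type replicate 3 or any single library of orb2-delta-zz was left out, adjusted p up to 0.122). In the respiratory chain ND-B15 (0.60) was higher and COX5B (-0.60) lower of 66, each keeping the call in 2 of the 6 left-out fits. With the replicate block ND-B15 was not called (adjusted p = 0.0710). Without wild type replicate 2 that list had 2 higher and 1 lower. Of 16 chaperone genes 2 were higher and 1 lower (18.75%), against 4 and 1 without wild type replicate 2. The inducible chaperones Hsp70Aa (2.51) and Hsp70Ab (2.32) were higher, the call of Hsp70Aa being lost without wild type replicate 3 or orb2-delta-zz replicate 3 (adjusted p up to 0.0606). Hsc70-1, a chaperone of the same family, was lower (-2.34, adjusted p = 0.0483) and lost the call in each of the 6 left-out fits and with the replicate block (adjusted p up to 0.149). Hsp70Ab held 1447, 2512 and 2651 in orb2-delta-zz against 302, 608 and 422 in wild type, and the 2 genes are near-identical copies whose reads may be shared.

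**Figure D4:**
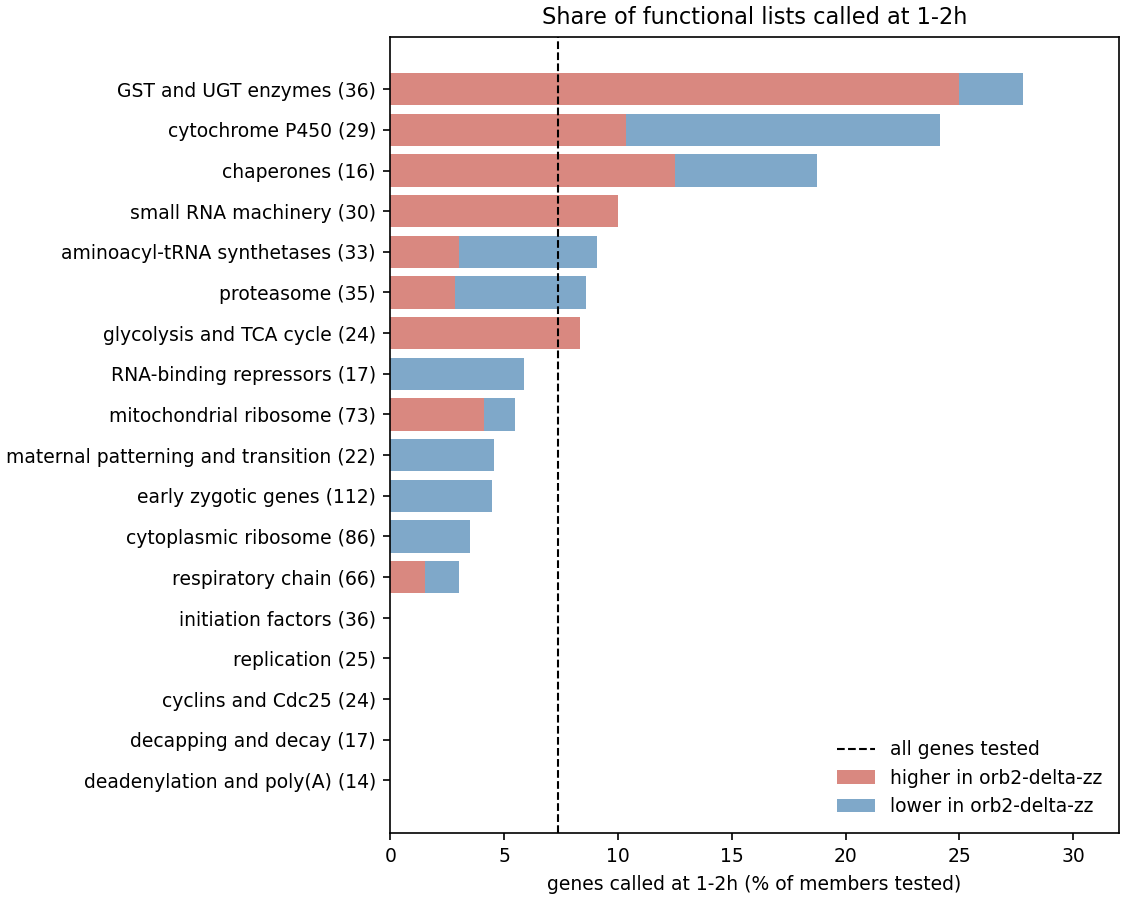
Percent of tested members called at 1-2h in 18 functional lists, split into higher and lower in orb2-delta-zz, with the number tested in brackets. The dashed line is the 7.38% of all genes tested, and the detoxification lists reach 27.8% and 24.1%. Not all lists are drawn. Among those left out are ciliary genes (28.6% of 7 tested) and genes of the Dscam, dpr and DIP families (25% of 16). The gene groups chosen after their values were seen, with 28.6% to 36.8%, are left out too.

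The largest single differences fell on genes at or near 0 in 1 genotype. Ada1-1, a copy of the gene for a SAGA complex subunit, held 515, 377 and 459 normalized counts in orb2-delta-zz, while each wild type library listed it at 0. CG12896 held 92.8, 55.8 and 65.5 in orb2-delta-zz and 0 in each wild type library. CG30059, which overlaps BaraA1 on the opposite strand, was at 0 in each orb2-delta-zz library, against 662, 835 and 876 in wild type. These 3 have 1 genotype without a single value above 0, so no fold is given. CG31683 held 1508, 1518 and 1650 in orb2-delta-zz against 3.55, 9.36 and 5.10 in wild type (7.88 ± 0.31). CG12560 (7.53), CG30054 (6.76), CG14219 (4.73) and CG17470 (4.53) were of the same kind, the call of CG14219 being lost without orb2-delta-zz replicate 3 (adjusted p = 0.0521). Dscam4, a neural adhesion receptor gene at 3L:8238647-8282398, held 0, 0.992 and 1.02 in orb2-delta-zz, against 1118, 953 and 1162 in wild type (-9.40 ± 0.35). Oseg5, a gene of ciliary transport, held 0.964, 0.970 and 0 in orb2-delta-zz, against 581, 551 and 674 in wild type (-8.58 ± 0.36). The remaining large falls were Sdic3 (-7.84), 1 of a tandem family of near-identical sperm dynein genes, the pseudogene or non-coding gene CR32010 (-6.60), and Neto (-5.88), an auxiliary subunit of glutamate receptors. Each of the genes of this paragraph was called at 0-1h and 2-3h too, in the same direction.

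Arc1, which encodes a capsid protein derived from a retrotransposon, held 4763, 4336 and 4424 in orb2-delta-zz, against 27.0, 567 and 5.25 in wild type. Its log2 difference of 6.60 ± 1.39 (adjusted p = 0.0304) lost the call in the 5 left-out fits other than that without wild type replicate 2, with adjusted p of up to 0.123. The wild type libraries differed by 2 orders of size among themselves, with replicate 2 the highest. Its relative Arc2 was lower (-1.30), and lost the call without orb2-delta-zz replicate 2 or 3 (adjusted p up to 0.0600). Among the 29 pseudogenes tested 7 were called (24.1%), and among 273 non-coding RNA genes 9 were higher and 13 lower (8.06%), against 15 and 32 without wild type replicate 2.

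Most calls at 1-2h were also calls an hour before. Of 572 called genes that were tested at 0-1h, 476 were called there in the same direction and 0 in the opposite one, beside 21.3% of genes called at 0-1h. Of 584 tested at 2-3h, 164 were called in the same direction and 1 in the opposite one, beside 3.28%. In the same direction at all 3 hours were 138 genes, 72 higher and 66 lower. The test of the difference itself found 15 genes of 7533 (0.199%) whose genotype effect changed between 0-1h and 1-2h, 40 without wild type replicate 2 of 1-2h, 8 without orb2-delta-zz replicate 3 of 0-1h, and 6 with the replicate block.

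CG6180 (2L:12707661-12708680 in BDGP6.54) had the smallest p among them. At 0-1h it held 7174, 6817 and 7362 normalized counts in orb2-delta-zz and 6891, 8066 and 6862 in wild type, which overlap. At 1-2h it held 2036, 2071 and 2067 in orb2-delta-zz against 12900, 9494 and 9792 in wild type, and the groups were apart by more than 4-fold. The log2 difference was -0.03 at 0-1h, -2.37 at 1-2h and -4.90 at 2-3h, and the change from 0-1h to 1-2h was -2.34 ± 0.15 (limma, adjusted p = 1.96e-05). It held in all 12 left-out fits, with the replicate block and on TPM. CG18476 was alike, with 550, 676 and 657 at 1-2h in orb2-delta-zz against 1824, 2060 and 1737 in wild type, and log2 differences of -0.07, -1.58 and -2.20 at the 3 hours. Nost, an F-BAR membrane protein gene, had -0.01, -0.69 and -1.59, and CG12096 had -0.02, -0.87 and -1.74. In these 4 genes the difference at 0-1h lay between -0.07 and -0.01, and orb2-delta-zz was called lower at 1-2h. At 2-3h it was called lower in all but Nost (adjusted p = 0.113).

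Other genes followed other courses. Tgt, the tRNA-guanine transglycosylase that inserts queuosine, held 1155, 1201 and 1178 in orb2-delta-zz at 0-1h and 1103, 1297 and 1160 in wild type. At 1-2h it held 1329, 1096 and 903 in orb2-delta-zz against 381, 463 and 373 in wild type, a log2 difference of 1.44. CG4935 had differences of 0.14, 1.32 and 2.30 at the 3 hours. Lztr1, an adaptor of a cullin ubiquitin ligase, had 3.07, 1.63 and 0.70, CG18304 had 4.88, 2.42 and 0.94, and Kank, a cell cortex protein gene, had 5.01, 3.05 and 1.70. In these last 3 orb2-delta-zz was far higher at 0-1h and the difference shrank with time. Fnta, the alpha subunit of farnesyltransferase, had -0.58 at 1-2h beside 0.04 at 0-1h and 0.08 at 2-3h. The Kank and Fnta differences were lost without orb2-delta-zz replicate 3 of 0-1h (adjusted p = 0.0508 and 0.0518), and with the replicate block those of Nost, CG12096, CG4935, CG18304 and Fnta were lost (adjusted p up to 0.114). On TPM those of Nost (adjusted p = 0.0704), CG12096 (0.170), CG18304 (0.955), Kank (0.170) and Fnta (0.135) were lost, and with 18 libraries in 1 fit those of Lztr1 (0.127), Nost (1.00), Tgt (0.136) and Fnta (0.166). Between 1-2h and 2-3h the effect changed at 18 genes of 8015 (0.225%), CG6180 again having the smallest p (-2.54). That count was 338, 8 or 33 without wild type replicate 1, 2 or 3 of 2-3h, 7 or 6 without orb2-delta-zz replicate 2 or 3 of 2-3h, 6 without orb2-delta-zz replicate 3 of 1-2h, and 0 with the replicate block in limma (556 at an unadjusted p under 0.05).

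**Figure D5:**
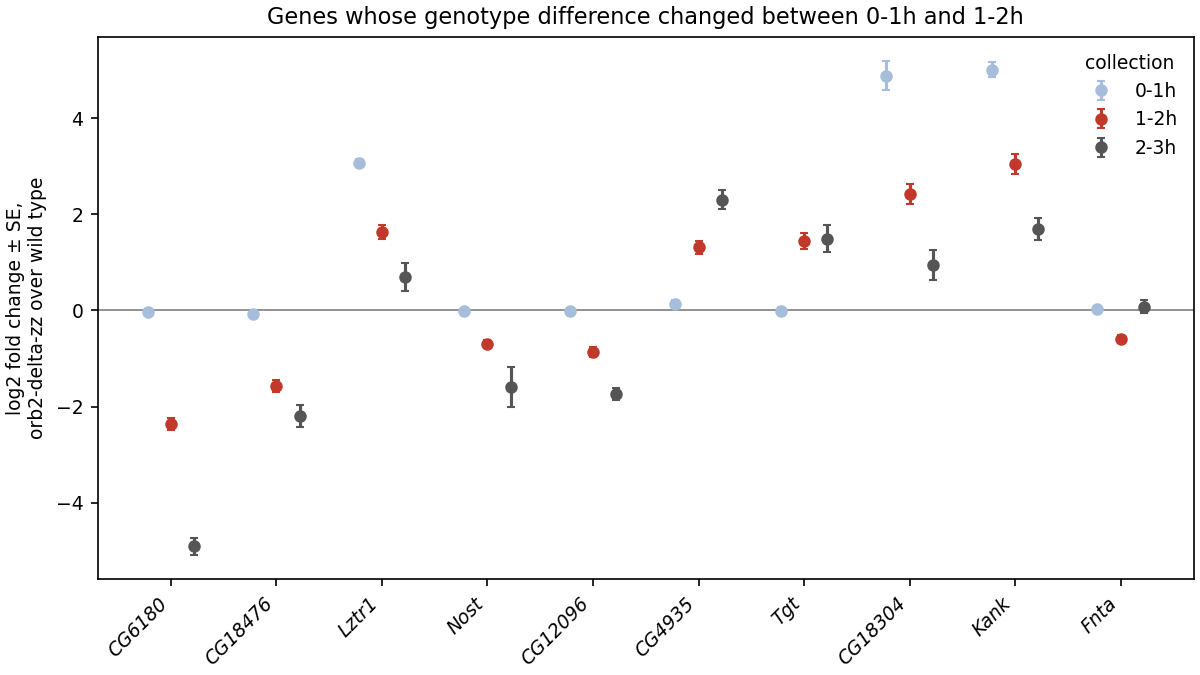
Log2 fold change of orb2-delta-zz over wild type with its standard error at 0-1h, 1-2h and 2-3h for the 10 genes with the smallest p for the change between the first 2 hours. CG6180, CG18476, Nost and CG12096 start near 0 and fall below it, Tgt and CG4935 start near 0 and lie above it later, and Lztr1, CG18304 and Kank start high and decline.

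The chromosomes differed in their share of calls. Of genes tested, 10.6% were called on X, 10.7% on 2L, 9.15% on 2R and 17.5% on 4, against 3.70% on 3L and 3.49% on 3R. Without wild type replicate 2 these shares were 19.0%, 20.3%, 18% and 26.3%, against 11.4% and 10.2%. At 0-1h they were 25.3%, 27.5%, 27.7% and 35.6%, against 13.7% on both arms of chromosome 3. Called changes of 4-fold or more made up 2.39% of genes on X, 2.45% on 2L and 2.10% on 2R, against 0.511% on 3L and 0.677% on 3R. On chromosome 4, with only 80 genes tested, they made up 7.5%. orb2 itself lies on 3L. The part of this split in the differences above was not tested.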

How the data were processed

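The authors deposited, per time point, normalized counts, treated here as a signal per gene and library, and TPM. Trim Galore 0.6.5, Salmon 1.9.1 and DESeq2 1.42.1 are named in the submitters' processing notes, without roles. Which genome build and annotation they used is not stated in those notes. Normalized counts summed to 3.55e+07 to 3.85e+07 and TPM to 998584 to 998928 in the deposited tables. Low values came out whole, within 0.1, for between 27.6% and 71.9% of genes in a library. That is short of the 95% set for recovering reads, so count models were not applied and depth is unknown. All deposited columns were mapped.

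Values were compared with limma 3.58.1 (trend) in R 4.3.3 on log2(value + 1), two-sided, for genes with a mean of 10 or more, with Benjamini-Hochberg adjustment over all genes tested. Fold changes on that scale understate the change of low genes. Changes of genotype effect between hours came from a joint fit of 12 libraries. Same-numbered libraries deviated together only weakly (r of 0.16, 0.13 and 0.17 across genes, which are not independent). The labels do not state a pairing, and the main fit has no replicate block. The fit with the block is given as an alternative where it ends the call of a gene named for its change. No 2 libraries were identical. Symbols came from the Ensembl annotation of BDGP6.54 for 8126 of 8188 identifiers. The classes used a ratio of (TPM + 1) of 2 or 0.5 and a TPM of 5 or more.

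The lists and members were chosen with earlier results of these data known. Named are orb2, the 8 largest rises and falls with groups apart and a mean of 50 or more, up to 3 called members per list and direction, 5 per class and direction, and 10 genes for the difference between hours. Other named genes were chosen after their values were seen. Of the marker lists, follicle, adult and cuticle or gut genes were absent from the table. Late neuron markers (2 of 6 listed) summed to 577, 598 and 470 in orb2-delta-zz against 815, 478 and 709 in wild type, and yolk and blood markers (3 of 4) to 898, 924 and 882 against 1188, 615 and 1023. Alternatives covered the pseudocount, filter, rescaling by trimmed mean factors, TPM, replicate block, library weights, variance trend, threshold, class limits and each library left out. The test was checked on simulated data.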

Additional observations from a re-analysis of the deposited data

Results flagged for a closer look

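The following genes had a genotype difference that changed between hours by the test of the change itself (limma, adjusted over all genes). Between 0-1h and 1-2h there were 15 such genes, and between 1-2h and 2-3h there were 18. For the 10 with the smallest p, the difference at 1-2h minus that at 0-1h was -2.34 for CG6180, -1.51 for CG18476, -1.44 for Lztr1, -0.67 for Nost and -0.85 for CG12096. It was 1.18 for CG4935, 1.45 for Tgt, -2.46 for CG18304, -1.96 for Kank and -0.62 for Fnta. Of these, the changes of Lztr1, CG18304 and Kank reflect a higher level in orb2-delta-zz that was closer to wild type at the later hour. The other 7 had genotypes within 0.14 of each other at 0-1h.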

How the results depend on the processing

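The number of genes called at 1-2h (597) was 1842 with library weights and 211 at an adjusted p under 0.01, and ranged from 203 to 1261 with a library left out. Without a variance trend it was 515, on TPM 496, with the replicate block 495 and with trimmed mean rescaling 594. The members of functional lists called (59) ranged from 21 to 150 with a library left out. The decay class count (142) was 77 on TPM and 63 with a 4-fold class limit, and ranged from 44 to 349. The rise class count (41) was 21 with a 4-fold class limit and ranged from 9 to 245. The genes whose effect changed between 0-1h and 1-2h (15) were 6 with the replicate block, 6 on TPM and 9 with 18 libraries in 1 fit, and ranged from 8 to 40. Those that changed between 1-2h and 2-3h (18) were 28 with separate spreads, 0 with the replicate block in limma (556 at an unadjusted p under 0.05) and 59 with 18 libraries, and ranged from 6 to 338. For each range the cause was not tested, beyond the smaller groups of a fit with a library left out. Of the 106 named genes, 0 changed sign under any setting run, 98 of them passing the filter on a mean of 50 or more. The groups did not overlap at any called gene or at orb2. Leaving out a library or adding the replicate block could therefore not turn a sign there, so this count is no check of those genes. The replicate block ended the call of 11 (among them Smug, adjusted p = 0.0555, and DIP-alpha, 0.0783, not described above), TPM of 18, no variance trend of 24, and the left-out libraries of 0 (wild type replicate 2) to 48 (orb2-delta-zz replicate 3). The depth being unknown, no limit is set for genes listed at 0.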

Other observations

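Gene groups in this section were chosen after their values had been seen, so they carry no test of a group. Genes of protein entry, glycosylation and export in the endoplasmic reticulum are shown first. Of 41 tested, 2 were higher and 13 lower, with 32 negative differences and a median of -0.24, beside 3.52% higher and 3.85% lower over all genes. Sec61beta, a subunit of the translocation channel, held 866, 838 and 699 normalized counts in orb2-delta-zz, against 1457, 1658 and 1269 in wild type (-0.86). Ost48, a subunit of the oligosaccharyltransferase, was lower by a log2 difference of -0.58, and xit, a glucosyltransferase gene, by -0.57. EMC2B (0.61) and EMC2A (0.39), of the membrane insertion complex, were higher. None of the 15 was called in every left-out fit, 4 were lower on TPM and 7 with the replicate block, which also ended the call of EMC2A (adjusted p = 0.0572). Leaving out wild type replicate 3 gave 1 higher and 3 lower, and leaving out orb2-delta-zz replicate 1, 2 or 3 gave 2, 0 or 0 lower. Among 31 genes of lipid and peroxisome metabolism, 8 were higher and 1 lower, beside the same shares over all genes. Without wild type replicate 2 there were 11 higher and 2 lower, without wild type replicate 3 there were 2 and 1, and without orb2-delta-zz replicate 1, 2 or 3 there were 3, 1 or 2 higher. The only member called higher in every left-out fit was the lipoprotein receptor gene LpR1, with 3929, 3915 and 4097 in orb2-delta-zz against 2591, 2505 and 2620 in wild type (0.63).

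Of 19 genes of neural precursors 7 were lower and 0 higher, beside 3.85% lower over all genes. There were 9 lower without wild type replicate 2, but 1 lower without wild type replicate 3, orb2-delta-zz replicate 2 or orb2-delta-zz replicate 3. Among the 15 with a mean of 50 or more, 3 were lower and the median was -0.01, against -0.37 for all 19. The only one called lower in every left-out fit was insc. insc, which orients the division of neuroblasts, held 286, 267 and 202 in orb2-delta-zz, against 1379, 2027 and 1470 in wild type (-2.68 ± 0.19), and the log2 difference was -2.71 at 0-1h and -0.70 at 2-3h. At 0-1h insc held 550, 522 and 585 in orb2-delta-zz against 3635, 3637 and 3604 in wild type. Its transcripts were thus present before the hour of this comparison, and its difference is not read as one of neural precursors. sktl overlaps insc on the same strand. scrt, a Snail family repressor, was lower by -1.60. The call of scrt was lost without wild type replicate 3 or orb2-delta-zz replicate 2 or 3 (adjusted p up to 0.0558).

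Of 28 DNA repair genes tested 4 were higher and 4 lower, beside 3.52% higher and 3.85% lower over all genes. Both photolyase genes among them changed, in opposite directions. phr6-4, which reverses 6-4 photoproducts, held 1845, 1914 and 1962 in orb2-delta-zz, against 201, 171 and 157 in wild type (3.43 ± 0.13). phr, which reverses pyrimidine dimers, held 413, 521 and 439 in orb2-delta-zz, against 1069, 1387 and 1232 in wild type (-1.42 ± 0.14). Both were called in every left-out fit. The groups did not overlap at either gene, as at every called gene. phr6-4 (2L:20643351-20645791) lies beside CG17470 (2L:20642306-20643244) on the same strand, which was higher too (4.53). phr (2R:7825289-7827319) overlaps Prosalpha1 on the opposite strand and lies near CG18853 (2R:7829062-7830429), which was lower too (-6.09). Whether neighbouring genes changed together was not tested.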
